A study of Mus musculus with 2 samples.

Results

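Interferons are secreted warning signals of virus infection. Type I interferons bind the receptor Ifnar1/Ifnar2, whose kinases Jak1 and Tyk2 act on transcription factors that bind interferon-stimulated response elements in the promoters of antiviral genes, so that such genes usually come on together. Red cells and reticulocytes have lost their nucleus and keep transcripts made earlier in the bone marrow, most of them for globin. Described here are 9 interferon-stimulated genes in blood: Isg15, Ube2l6, Usp18, Rsad2, Isg20, Oasl2, Ifit1, Ifit3 and Irf7. They were chosen by symbol from earlier results on these data, and all 9 were found among the 32285 genes of the files. The question set for them was whether they form constitutive transcripts of red cells or a joint interferon response, so their levels along the split into red and other barcodes are a description and carry no test.

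The data are 2 single-cell libraries, replicate 1 and replicate 2, of blood cells, all from animals of wild type genotype given burn/tenotomy, a burn combined with the cutting of a tendon that leads to heterotopic ossification (HO), bone formation in soft tissue. Whole blood was enriched on the iChip, a microfluidic sorter, and barcoded on the 10x platform, and the series looks for circulating mesenchymal progenitor cells (cMPCs) in it. Both libraries belong to 1 group, and the labels do not tie them to different animals, so any SD between them may be technical only. Blood of uninjured or interferon-treated mice was not analysed here, nor is age or sex stated in the labels.

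Each barcode, nominally a cell, was classed by the share of globin transcripts among its unique molecular identifiers (UMIs, counted molecules). Red barcodes, with at least 50% globin, numbered 847 of 1857 (474 of 1008 in replicate 1 and 373 of 849 in replicate 2). The other 1010 barcodes fell into 767 with over 20% mitochondrial UMIs (mitochondria-rich), 127 with 5 to 50% globin and at most 20% mitochondrial UMIs (intermediate), and 116 with under 5% globin and at most 20% mitochondrial UMIs (globin-poor). Levels are UMIs per 1e6 non-globin UMIs of a class. Red barcodes held a median of 735 and 710 non-globin UMIs in replicate 1 and replicate 2, against 843 and 780 in the other barcodes, of which most in mitochondria-rich barcodes were mitochondrial (median 94.7% and 94.8% of UMIs).

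The red class carried red cell transcripts and few UMIs of the markers of other cell types. Of 39 red cell genes, with Ube2l6 left out of the list, 37 had UMIs in red barcodes of replicate 1, and at least 2 of them were found in 99.8% and 99.7% of red barcodes. Together the 39 were at 104624 and 109836 per 1e6, so most non-globin UMIs of red barcodes came from genes outside this list. Alas2, the first enzyme of haem synthesis, was found in 473 of 474 and 370 of 373 red barcodes. The 42 leukocyte markers together were at 150 and 68.3 per 1e6 in red barcodes, where 21 and 7 of them had UMIs. Cd79a, Cd3e and Csf1r were at 0 UMIs and Ptprc at 3 and 0 UMIs. The 18 platelet markers were at 57.0 and 41.0 per 1e6, where 7 and 5 of them had UMIs and Pf4 had 0. The 35 mesenchymal or mesothelial markers were at 23.3 and 58.0 per 1e6, where 6 and 5 had UMIs and Col3a1 and Msln had 0.

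In GENCODE M21 (mm10) the genes were placed as follows. Rsad2 spans chr12:26442746-26456452 (minus strand), Isg15 chr4:156199424-156200818 (minus), Isg20 chr7:78913424-78920396 (plus), Ube2l6 chr2:84798828-84810335 (plus) and Irf7 chr7:141262706-141266481 (minus). Oasl2 spans chr5:114896936-114912234, Usp18 chr6:121245906-121270917, Ifit1 chr19:34640871-34650009 and Ifit3 chr19:34583531-34588731, all on the plus strand. Promoters of 8 members were matched in RefSeq (build GRCm38.p6, the mm10 sequence), each as 300 bases from 250 before to 50 after the transcription start. They are shown for Rsad2, Isg15, Ube2l6 and Ifit1, because these 4 cover the contrast that follows: interferon-response letters with and without red cell transcripts, and a red cell transcript with no such letters. Capitals mark the core of the interferon-stimulated response element, searched on both strands as GAAA, any 2 bases and GAAA again, so that copies on the opposite strand stand as the reverse complement.
Rsad2, chr12:26456403-26456702, minus strand: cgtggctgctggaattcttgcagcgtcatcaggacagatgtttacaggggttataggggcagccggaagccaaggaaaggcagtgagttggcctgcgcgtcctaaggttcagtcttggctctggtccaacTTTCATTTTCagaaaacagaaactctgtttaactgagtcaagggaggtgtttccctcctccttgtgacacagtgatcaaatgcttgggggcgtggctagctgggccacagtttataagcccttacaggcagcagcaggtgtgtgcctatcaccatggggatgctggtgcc
Isg15, chr4:156200769-156201068, minus strand: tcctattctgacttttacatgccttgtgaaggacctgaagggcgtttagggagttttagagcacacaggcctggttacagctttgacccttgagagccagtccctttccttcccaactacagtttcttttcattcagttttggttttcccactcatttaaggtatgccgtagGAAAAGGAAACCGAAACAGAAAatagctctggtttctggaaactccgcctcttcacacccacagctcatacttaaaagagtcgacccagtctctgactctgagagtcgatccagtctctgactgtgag
Ube2l6, chr2:84798578-84798877, plus strand: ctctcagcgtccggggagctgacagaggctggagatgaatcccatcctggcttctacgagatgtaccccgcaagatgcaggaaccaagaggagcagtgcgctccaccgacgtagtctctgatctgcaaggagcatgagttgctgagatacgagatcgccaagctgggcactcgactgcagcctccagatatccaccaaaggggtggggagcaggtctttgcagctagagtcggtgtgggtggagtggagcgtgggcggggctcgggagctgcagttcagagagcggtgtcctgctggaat
Ifit1, chr19:34640639-34640938, plus strand: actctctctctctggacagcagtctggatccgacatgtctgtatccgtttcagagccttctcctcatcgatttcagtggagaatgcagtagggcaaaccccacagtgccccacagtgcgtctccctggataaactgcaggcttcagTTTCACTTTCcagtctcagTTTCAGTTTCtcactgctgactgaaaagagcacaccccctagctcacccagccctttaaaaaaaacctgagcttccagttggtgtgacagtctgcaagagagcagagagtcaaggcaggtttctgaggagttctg
The core was present in 4 of the 8 members with a promoter (Rsad2, Isg15, Ifit1 and Ifit3), once in Rsad2, as 3 overlapping copies in Isg15 and as 2 copies each in Ifit1 and Ifit3. Of all 32851 promoters searched, 3.44% held it, and 3.99% of 27025 genes held it in at least 1 promoter. The letters AGATAA, of the kind bound by the red cell factor Gata1, were also searched on both strands. They were in a promoter of Isg20 (1 of the 3 searched), Oasl2 and Irf7. Of all promoters 11.2% held them, and 12.7% of genes held them in at least 1 promoter. The Ube2l6 window held neither set of letters. A match in these windows is a description of the letters only.

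The members split into 4 that were abundant in red barcodes, 1 that was sparse there, and 4 that were at or near 0. Ube2l6, Isg20, Rsad2 and Isg15 together had 9508 UMIs in red barcodes, and 842 of 847 red barcodes held at least 1 of them. Irf7 had 73 UMIs. Oasl2, Ifit1, Usp18 and Ifit3 together had 18 UMIs, in 17 of 847 red barcodes, and no red barcode held more than 1 of these 4 genes. Among 7418 non-globin genes with at least 10 UMIs, ordered by their UMIs in red barcodes, Ube2l6 stood at rank 22, Isg20 at 36, Rsad2 at 41, Isg15 at 79 and Irf7 at 355.

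With a call meaning a level at least 2-fold apart in both libraries after adding 1 UMI to each sum, 5 members were higher in red than in other barcodes and 3 lower, while Usp18 passed in 1 library only. Over all 7418 genes, 7.04% were higher and 69% lower. Against the other barcodes with at most 20% mitochondrial UMIs, 5 members were higher and 4 lower, beside 4.94% and 80.6% of all genes, and with mitochondrial UMIs left out these were 5 and 4 members beside 4.35% and 83% of all genes. The choice of members used this contrast, so nothing is read from these counts. The median log2 ratio was 3.21 over the 9 members and -2.24 over all genes.

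**Figure D1:**
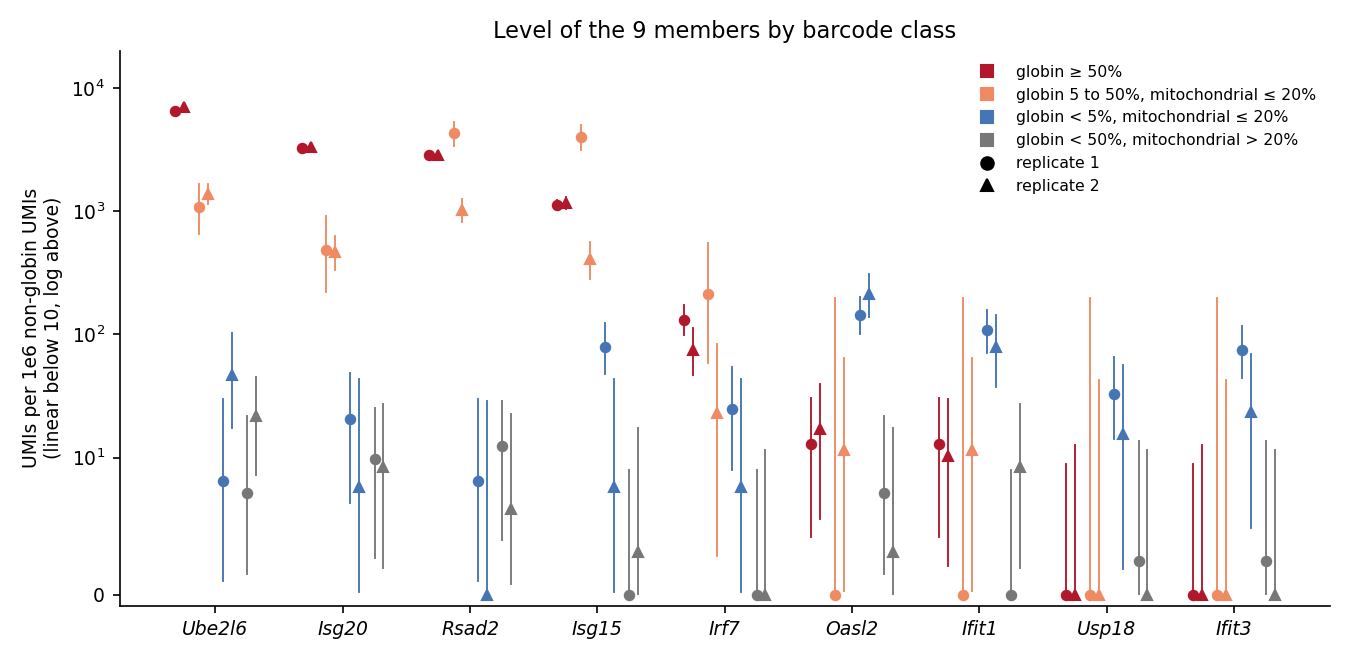
Level of each member in UMIs per 1e6 non-globin UMIs (vertical axis, linear below 10 and log above) in 4 classes of barcodes, with circles for replicate 1, triangles for replicate 2 and lines for exact 95% Poisson intervals. Ube2l6, Isg20, Rsad2 and Isg15 lie at 1130 or more in red barcodes of both libraries, while Usp18 and Ifit3 lie at 0 there and Oasl2, Ifit1, Usp18 and Ifit3 are highest in globin-poor barcodes.

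Isg15, the ubiquitin-like protein that is attached to other proteins after interferon, was at 1130 per 1e6 in red barcodes of replicate 1 (95% interval 1026 to 1241) and 1164 in replicate 2 (1044 to 1295). Other barcodes had 140 and 69.2 per 1e6. It was found in 126 of 474 red barcodes (26.6%, exact binomial 95% interval 22.7 to 30.8%) and 103 of 373 (27.6%, 23.1 to 32.5%). The libraries thus gave nearly equal levels in red barcodes, 1147 ± 24.5 per 1e6 (SD, n = 2), and differed in the others, where a single barcode held 49 of the 93 UMIs of replicate 1.

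Ube2l6 encodes the enzyme that hands Isg15 to its targets. In red barcodes it was at 6534 and 7033 per 1e6 (mean 6784 ± 353, SD, n = 2), against 37.6 and 247 in other barcodes (142 ± 148). It was detected in 467 of 474 and 359 of 373 red barcodes (98.5% and 96.2%), with a median of 5 UMIs in each library. Nearly every red barcode thus held the transcript of the conjugating enzyme, while most had none of Isg15 counted.

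Usp18, the protease that removes Isg15 and dampens the type I receptor, had 0 UMIs in all red barcodes, which allows a share of barcodes with a counted UMI of up to 0.633% in replicate 1 and 0.804% in replicate 2 (not a share of cells that hold the transcript) and a level of up to 7.77 and 10.2 per 1e6. Other barcodes had 9 and 2 UMIs. No fold is given, since 1 barcode held 5 of the 9 UMIs.

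The other genes of Isg15 conjugation had few UMIs in red barcodes. Uba7, the activating enzyme, had 3 UMIs in red barcodes and 20 in others. The ligases Herc6, Arih1 and Trim25 had 7, 8 and 2 UMIs in red barcodes, against 48, 184 and 39 in others. Of these 4 genes, 0 were called higher and 3 lower in red barcodes, beside 7.04% and 69% of all genes.

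Rsad2 encodes viperin, a radical SAM enzyme that makes a chain-terminating nucleotide. It was at 2842 per 1e6 in red barcodes of replicate 1 (2677 to 3016) and 2858 in replicate 2 (2667 to 3058), against 131 and 168 in other barcodes. It was detected in 303 of 474 (63.9%, 59.4 to 68.3%) and 237 of 373 red barcodes (63.5%, 58.4 to 68.4%). Its mean in red barcodes was 2850 ± 10.9 per 1e6 and in others 150 ± 26.6 (SD, n = 2 each), a mean log2 ratio of 4.25.

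Cmpk2, a mitochondrial nucleotide kinase gene that neighbours Rsad2 on chromosome 12 at a distance of 12751 bases and is also interferon-induced, had 0 UMIs in red barcodes and 9 in others. At 0 UMIs the floor was again 7.77 and 10.2 per 1e6. Rsad2, at 2842 and 2858 per 1e6, was therefore found in red barcodes without its neighbour.

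Isg20, a 3′ to 5′ exonuclease of RNA, was at 3228 and 3308 per 1e6 in red barcodes (3268 ± 56.6, SD, n = 2) and at 27.1 and 82.3 in other barcodes (54.7 ± 39.1). It was detected in 374 of 474 (78.9%) and 292 of 373 (78.3%) red barcodes. The median red barcode held 2 UMIs of it in each library.

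Detection depends on depth, and thinning every barcode to 100 non-globin UMIs kept the order. After thinning, 3 barcodes of replicate 2 being too shallow, Ube2l6 was expected in 47.9% and 50.7% of red barcodes, Isg20 in 27.0% and 27.7%, Rsad2 in 20.8% and 20.5% and Isg15 in 7.18% and 7.21%. As a background, barcodes outside the red class with at least 2 leukocyte markers, and more of these than of another kind, should lack red cell RNA. Their depth without globin and mitochondrial UMIs was a median of 792 and 112 in replicate 1 and replicate 2, against 721 and 688 in red barcodes. Rsad2 was found in 1 of 126 and 0 of 29 of them, Ube2l6 in 1 of 126 and 0 of 29, Isg20 in 2 of 126 and 0 of 29 and Isg15 in 5 of 126 and 0 of 29. Among those with at most 20% mitochondrial UMIs, a choice made after seeing the data, the depth was 1701.5 and 1829, and Rsad2 was in 1 of 60 and 0 of 5, Ube2l6 in 0 of 60 and 0 of 5, Isg20 in 2 of 60 and 0 of 5 and Isg15 in 5 of 60 and 0 of 5.

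The remaining effectors were almost absent from red barcodes. Oasl2, of the oligoadenylate synthetase family, had 5 UMIs in each library, or 12.95 and 17.1 per 1e6, against 57.2 and 54.3 per 1e6 in other barcodes. Ifit1, which binds incompletely capped RNA, had 5 and 3 UMIs (12.95 per 1e6, interval 4.21 to 30.2, and 10.2 per 1e6, interval 2.11 to 29.9), against 39.1 and 26.2 per 1e6 in others. Its partner Ifit3 had 0 UMIs in red barcodes and 19 and 3 in others, with 14 of the 19 in 1 barcode, so that no fold is given. Counts of Ifit1 and Ifit3 are uncertain, since reads can be split with their close copies Ifit1bl1 and Ifit3b.

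Irf7, the factor that amplifies interferon production, lay between these groups. It was at 132 per 1e6 in red barcodes of replicate 1 (98.4 to 174) and 75.1 in replicate 2 (47.1 to 114), against 15.04 (7.21 to 27.7) and 5.61 (1.16 to 16.4) in other barcodes. It was found in 34 of 474 and 16 of 373 red barcodes (7.17% and 4.29%), and at most 5 and 4 UMIs were counted in 1 barcode.

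Near the boundary of the red class the abundant members were found on both sides. In the 38 barcodes with 50 to 60% globin, Rsad2 was at 2416 and Isg15 at 1546 per 1e6, pooled over the libraries, and in the 18 barcodes with 40 to 50% globin they were at 3899 and 3258. In the lower range the libraries differed, with Rsad2 at 10959 per 1e6 in 3 barcodes of replicate 1 and 1040 in 15 of replicate 2, and Isg15 at 8733 and 1040. A single barcode of replicate 1 held 53 of the 79 UMIs of Rsad2 and 49 of the 66 of Isg15 there. Isg20 was at 821 and 839 per 1e6 in these ranges and Ube2l6 at 3600 and 2567. Usp18, Ifit1 and Ifit3 had 0 UMIs in both ranges, and Oasl2 had 1 and 0 UMIs.

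The 4 abundant members differed in how evenly red barcodes held them. The variance of UMIs per red barcode over their mean was 2.66 and 2.58 for Ube2l6, 2.38 and 2.34 for Isg20, 4.25 and 4.49 for Rsad2 and 10.95 and 8.08 for Isg15. The tenth of red barcodes with most Isg15 held 77.8% and 77.1% of its UMIs, while the corresponding shares were 41.1% and 41.7% for Rsad2 and 25.0% and 24.9% for Ube2l6. Single red barcodes reached 36 and 25 UMIs of Isg15, although 73.4% and 72.4% had 0.

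**Figure D2:**
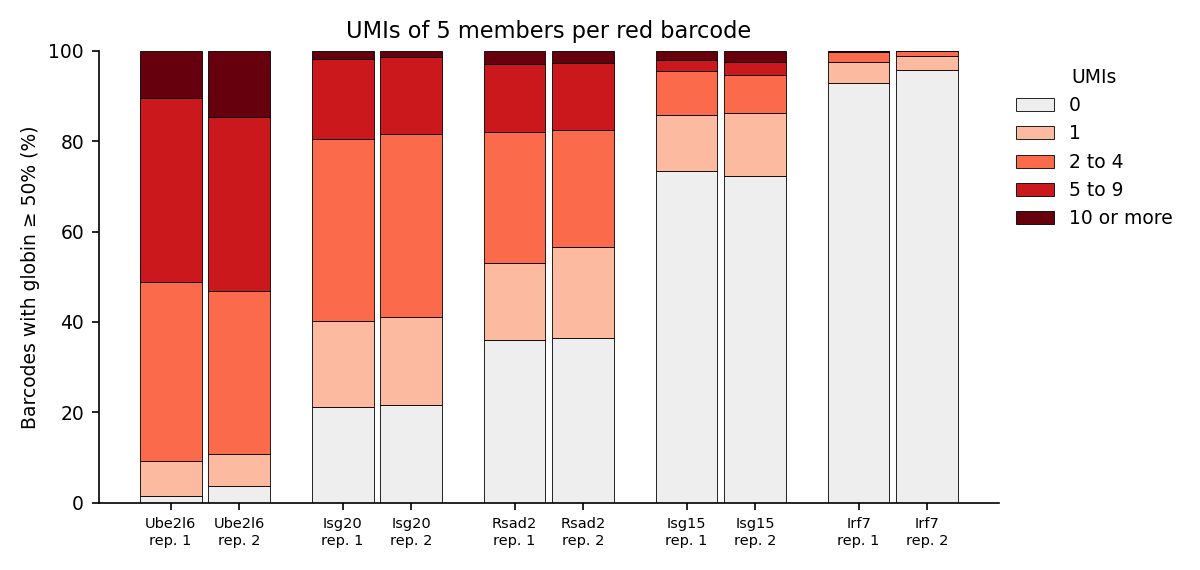
Share of red barcodes (vertical axis, percent) with 0, 1, 2 to 4, 5 to 9 and 10 or more UMIs of Ube2l6, Isg20, Rsad2, Isg15 and Irf7 in each library. Ube2l6 had 0 UMIs in 1.48% and 3.75% of red barcodes and Isg15 in 73.4% and 72.4%, yet 2.11% and 2.41% held 10 or more UMIs of Isg15.

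Along the globin range, Ube2l6 and Isg20 behaved alike and Rsad2 and Isg15 did not follow them. Isg20 was at 2405 and 2228 per 1e6 in red barcodes with 50 to 90% globin and at 4831 and 5043 in those with at least 90%. Ube2l6 was at 5021 and 5619 and at 9478 and 9304 in the same ranges. Rsad2 was at 2930 and 2693 per 1e6 below 90% globin and at 2671 and 3122 above it, and Isg15 at 1353 and 1003 below and 694 and 1423 above. The direction thus differed between the libraries for Rsad2 and Isg15. Over red barcodes with at least 100 non-globin UMIs (474 and 370), the Spearman correlation of the level with globin share was 0.47 and 0.44 for Isg20, 0.55 and 0.49 for Ube2l6, -0.05 and -0.03 for Rsad2 and -0.12 and -0.05 for Isg15. The correlation with non-globin UMIs was 0.25 and 0.33 for Rsad2 and -0.22 and -0.24 for Ube2l6, so depth moved with these levels, and its part was not tested.

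Genes whose level followed each member over red barcodes were ranked among the 269 other genes found in at least 10% of them, by the lower correlation of the libraries. These values are descriptions: the barcodes share library, depth and globin share. Rsad2 and Isg15 were each other's first gene, with a Spearman correlation of 0.37 and 0.33, against a median of 0.04 for all genes with Rsad2. After Isg15, Rsad2 was followed by Prxl2a, Serinc3 and Car2. After Rsad2, Isg15 was followed by Car2, a carbonic anhydrase, Trim10, Slc4a1, the anion exchanger band 3, and Mpp1. Ube2l6 and Isg20 stood at ranks 166 and 169 for Rsad2 and at ranks 77 and 227 for Isg15.

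Isg20 and Ube2l6 followed other genes. The first 5 for Isg20 were Bpgm, which makes bisphosphoglycerate, Ubb, Mkrn1, Gpx1 and Oaz1, led by correlations of 0.42 and 0.42. The first 5 for Ube2l6 were Ftl1, the ferritin light chain, Oaz1, Alas2, Bpgm and Gabarapl2, led by 0.42 and 0.42. Gm42418, a gene found in all 847 red barcodes, was last of 269 for both, with -0.45 and -0.42 for Isg20 and -0.32 and -0.34 for Ube2l6. Its UMIs are part of the non-globin UMIs by which levels were divided. Its part in the rise of Isg20 and Ube2l6 with globin share was not tested. Alas2 was last of 269 for Isg15, with -0.14 and -0.19. Isg20 stood at rank 16 for Ube2l6, with 0.32 and 0.20.

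Joint detection was set beside the number expected if each gene were spread over red barcodes without regard to the other, summed over 4 strata of non-globin UMIs in each library. Rsad2 and Isg15 were found together in 110 red barcodes of replicate 1 against 86.4 from the product of their shares (ratio 1.27) and in 86 of replicate 2 against 74.3 (1.16). Isg15 was found in 36.3% and 36.3% of red barcodes with Rsad2 and in 9.36% and 12.5% of those without. In every depth quartile of both libraries the share was higher with Rsad2, from 35.3% against 2.94% in the shallowest quartile to 41.7% against 13.6% in the deepest of replicate 1, and from 20.6% against 6.67% to 49.4% (41 of 83) against 2 of 10 barcodes in replicate 2.

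Irf7 was found with both. Of the 50 red barcodes with Irf7, 39 also held Isg15, against 15.1 from the product (2.58 over both libraries, 2.78 and 2.17 in each), and 48 held Rsad2, against 34.8 (1.38). A pair's ratio cannot exceed 1 over the share of the more common gene, so ratios with Isg15, Rsad2, Isg20 and Ube2l6 have different ceilings and do not rank the pairs. Among the 5 members with over 50 UMIs, pairs with Isg20 or Ube2l6 lay near 1: Rsad2 with Isg20 at 1.01, Isg15 with Isg20 at 0.991, Isg15 with Ube2l6 at 0.999, Isg20 with Ube2l6 at 1.01 and Isg20 with Irf7 at 0.971. With Isg20 in 78.9% and 78.3% of red barcodes and Ube2l6 in nearly all, these pairs had little room above 1. An odds ratio combined over the depth strata, which has no such ceiling, was 4.46 and 2.70 for Rsad2 with Isg15. For Ube2l6 it was 5.09 and 1.70 with Isg20, 3.14 and 1.48 with Rsad2 and 0.968 and 0.930 with Isg15. Ube2l6 with Irf7 gave 0.407 in replicate 2 and no value in replicate 1. For Isg20 the odds ratio was 1.23 and 1.09 with Rsad2, 0.690 and 1.45 with Isg15 and 0.965 and 0.687 with Irf7. Values with Ube2l6 rest on the few red barcodes without it. Isg20 was found in all 10 red barcodes with Oasl2, against 8.11 from the product (1.23).

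**Figure D3:**
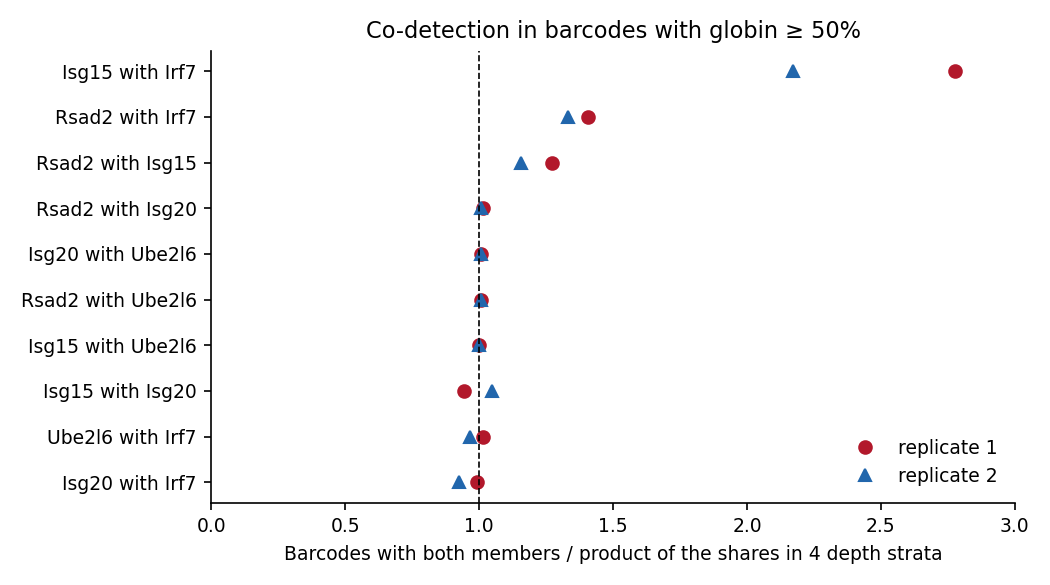
Red barcodes holding both members of a pair, divided by the product of their shares summed over 4 depth strata (horizontal axis), with circles for replicate 1 and triangles for replicate 2. Isg15 with Irf7 stands at 2.78 and 2.17, Rsad2 with Isg15 at 1.27 and 1.16, and the pairs with Isg20 or Ube2l6 lie close to the dashed line at 1. Pairs with Isg20 or Ube2l6, which most red barcodes held, have little room above 1, so the pairs are not ranked by this ratio.

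Sorting red barcodes by their Isg15 count shows the same members moving. Rsad2 was at 2103 per 1e6 in the 618 red barcodes with 0 UMIs of Isg15, at 3606 in the 188 with 1 to 4 and at 7154 in the 41 with 5 or more. Irf7 was found in 1.78%, 16.0% and 22.0% of these barcodes. Isg20 was at 3337, 3319 and 2398 per 1e6 and Ube2l6 at 6603, 7265 and 6381. In the last group Isg20 was at 1734 in replicate 1 and 3040 in replicate 2. Usp18 and Ifit3 had 0 UMIs in all of these barcodes, and Oasl2 had 7, 2 and 1 UMIs. Ifit1 had 1, 6 and 1 UMIs, in 0.162%, 2.66% and 2.44% of the barcodes, too few to read a trend from. Other features moved with the Isg15 count: the median of non-globin UMIs was 684, 794.5 and 1208, Car2 was at 1939, 3911 and 5549 per 1e6 and Alas2 at 22937, 20085 and 15834. Their part in the levels of Rsad2 and Irf7 was not tested.

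The ratio with Isg15 was then taken for each of the 656 genes found in at least 20 red barcodes. Its median was 1.08, and 4 genes reached 2: Irf7 (2.58), Sp100 (2.35), Oas3 (2.25) and Ifitm3 (2.15). The fifth was B2m (1.95). Apart from Irf7, a member, these leading genes all stand on the other interferon lists: Sp100 is a nuclear body protein, Oas3 an oligoadenylate synthetase, Ifitm3 a membrane protein that blocks viral entry and B2m the light chain of class I antigen-presenting molecules. The 2 remaining genes of these lists among the 656, Jak1 and Ifi27, stood at ranks 29 (1.51) and 40 (1.47). The ceiling is lower for genes found in most red barcodes, so these ranks do not order common and rare genes alike. Rsad2, found in 540 red barcodes, stood at rank 156 (1.22).

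Both libraries gave ratios well above 1 for each of the 5. Sp100 was found with Isg15 in 18 of 25 and 12 of 15 of its red barcodes (2.29 and 2.46), Oas3 in 12 of 17 and 10 of 11 (2.21 and 2.30), Ifitm3 in 6 of 11 and 10 of 16 (1.91 and 2.32) and B2m in 12 of 22 and 11 of 15 (1.98 and 1.92). With strata on globin share in place of depth, a choice made after seeing the data, the ratios over both libraries were 2.62 for Irf7, 2.54 for Sp100, 2.61 for Oas3, 2.39 for Ifitm3 and 2.17 for B2m, but the median over the 656 genes was then 1.25 and 15 genes reached 2. These were the 5 named and 10 on none of the lists, led by Ubl7 (2.37), Ube2v1 (2.21) and Zmat2 (2.13). The 5 genes were singled out after their ratios were seen, and they rest on 27 to 50 barcodes each. With Rsad2 in place of Isg15, where the ceiling is lower, Irf7 was again first of the 656 (1.38), and Ifitm3 and Sp100 stood at ranks 8 and 12. Oas3 stood at rank 39, Ifi27 at 78, B2m at 138 and Jak1 at 566 (0.955). The genes at ranks 2 to 7 were on none of the lists, so the order seen with Isg15 was only partly found with Rsad2.

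**Figure D4:**
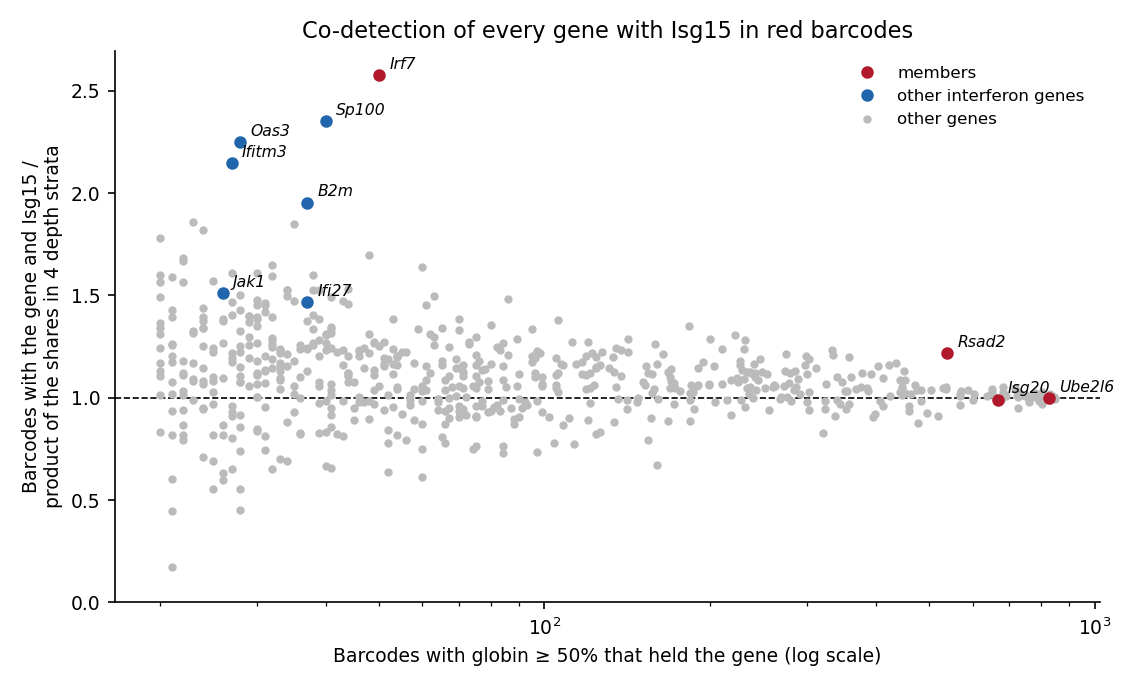
Each of 656 genes found in at least 20 red barcodes, by the number of red barcodes that held it (horizontal axis, log scale) and by its joint detection with Isg15 over the product of the shares in 4 depth strata (vertical axis), with members in red and genes of the other interferon lists in blue. Irf7, Sp100, Oas3, Ifitm3 and B2m lie above the other genes, at 1.95 to 2.58.

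Counts over the other interferon lists stand beside those of all genes, of which 7.04% were higher and 69% lower in red barcodes, and nothing particular to the lists is read from them. Of 15 ligand and receptor genes, 7 had UMIs and 2 had any in red barcodes: Il10rb with 12 UMIs in red barcodes and 19 in others, and Ifnar2 with 10 and 66. Ifnar1 and Ifngr1, which encode receptor chains for type I and type II interferon, had 0 UMIs in red barcodes and 27 and 38 in others. The list stood at 32.4 per 1e6 in red barcodes and 150 in others, with 0 of 5 tested genes higher and 4 lower, beside 7.04% and 69% of all genes.

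Of 18 signal transducers, 8 had UMIs in red barcodes, and 1 of 15 tested was called higher (Mavs, the mitochondrial adaptor of RNA sensors, with 7 UMIs in red barcodes and 3 in others) and 10 lower, beside 7.04% and 69% of all genes. Jak1 had 27 UMIs in red barcodes and 195 in others, Jak2 had 2 and 78 and Irf2 had 2 and 130. The transducers together were at 73.7 per 1e6 in red barcodes, against 624 in others.

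Of 58 further induced antiviral genes, 13 had UMIs in red barcodes, and 2 of 43 tested were called higher and 31 lower, again beside 7.04% and 69%. The higher ones were Oas3, with 33 UMIs in red barcodes and 4 in others, and Ifi27, a mitochondrial protein gene, with 54 and 19. Sp100 had 52 UMIs in red barcodes and 151 in others, Ifitm3 had 37 and 153, and Ifitm1 had 0 and 191. The list was at 306 per 1e6 in red barcodes and 1552 in others, and its median log2 ratio was -2.51, near the -2.24 of all genes.

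Of 27 genes typical of interferon gamma, 6 had UMIs in red barcodes, and 0 of 19 tested were higher and 16 lower, beside 7.04% and 69% of all genes. B2m had 41 UMIs in red barcodes and 194 in others, Gbp7 had 7 and 17, Irgm1 had 2 and 12, and Tapbp had 2 and 96. The chemokine gene Cxcl10 had 0 UMIs in red barcodes and 41 in others.

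Outside the red class, globin-poor and intermediate barcodes held different members in the main. The 116 globin-poor barcodes held 62 of the 77 UMIs of Oasl2, 36 of 48 of Ifit1, 21 of 22 of Ifit3 and 10 of 11 of Usp18, but 2 of 2111 of Rsad2, 8 of 4739 of Ube2l6 and 20 of 907 of Isg15. Per 1e6, Isg15 was at 54.2 in these barcodes, close to Ifit3 at 56.9. The 127 intermediate barcodes showed the reverse, with 168 UMIs of Rsad2, 109 of Isg15, 49 of Isg20 and 139 of Ube2l6, and 1 of Oasl2, 1 of Ifit1 and 0 of Usp18 and Ifit3. Rsad2 and Oasl2 were found together in 0 of the barcodes outside the red class, where 63 held Rsad2 and 26 held Oasl2, against 1.62 from the product. Other pairs across these groups did occur together: Ube2l6 with Oasl2 in 6 barcodes against 2.38, Ube2l6 with Ifit1 in 4 against 1.40, Isg15 with Ifit1 in 3 against 0.849 and Isg15 with Oasl2 in 3 against 1.56. The depth strata behind these products counted mitochondrial UMIs. Outside the red class the median of non-globin UMIs was 843 and 780 with them and 51.5 and 80.5 without. These strata therefore did not hold depth in other genes equal, and its part was not tested.

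Intermediate barcodes carried red cell RNA as well. Alas2 was found in 9 of 10 of them in replicate 1 and 94 of 117 in replicate 2, and leukocyte Ptprc in 1 of 10 and 0 of 117. Per 1e4 globin UMIs, Rsad2 was at 83.0 and 27.8 in intermediate barcodes, against 3.78 and 3.39 in red barcodes. Intermediate barcodes are defined by less globin, which raises non-globin genes on this scale, so nothing is read from it. Per 1e6 non-globin UMIs, pooled over the libraries, Rsad2 was at 1603 in intermediate and 2849 in red barcodes. In replicate 1, a single intermediate barcode with 44.5% globin held 53 of the 80 UMIs of Rsad2 and 49 of the 74 of Isg15. It held 609 genes, 30 red cell markers and 0 leukocyte markers, together with 4 UMIs of Cmpk2.

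Barcodes with at least 2 markers of a kind, and more of it than of another, show where the scarce members were. Oasl2, Usp18, Ifit1 and Ifit3 together had 82 UMIs in 25 of 111 barcodes with mesenchymal or mesothelial markers, 52 UMIs in 7 of 155 with leukocyte markers (all in replicate 1), 0 UMIs in 71 with platelet markers and 5 UMIs in 667 without such a call. Oasl2 alone was at 197 ± 36.7 per 1e6 (SD, n = 2) in the mesenchymal or mesothelial barcodes, found in 19 of 111. Depth moved with these calls: the median without globin and mitochondrial UMIs was 277.5 and 593 with mesenchymal or mesothelial markers, against 29 and 54 without a call, and its part was not tested. Rsad2 had 2 UMIs in the mesenchymal or mesothelial barcodes and 1 in the leukocyte ones.

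At least 3 members were found in 285 of 474 and 224 of 373 red barcodes (60.1% and 60.1%), against 9 of 534 and 21 of 476 other barcodes. Ube2l6, Isg20 and Rsad2 were each common in red barcodes, in 97.4%, 78.6% and 63.7% of them (means of the libraries). A number expected from the shares of single members was not formed for this count, so it is not read as joint detection. The 30 other barcodes divided by globin share. In 22 of them, with 14.96% to 49.9% globin, the members were Ube2l6, Isg20, Rsad2, Isg15 and Irf7, with 1 UMI of Ifit1 as the exception. Each of the 8 with at most 0.247% globin held 1 or more of Oasl2, Ifit1, Usp18 and Ifit3, and 0 UMIs of Rsad2. Depth divided them too: the 8 had 2832 to 21005 non-globin UMIs and the 22 had 483 to 2745. Its part in the detection of the scarce members was not tested. A leukocyte-marker barcode of replicate 1 with 29 UMIs of Ptprc held 15 of Ifit1, 14 of Ifit3 and 5 of Usp18, and 0 of Rsad2 and Isg15. A barcode of replicate 1 with 1302 UMIs of the neutrophil gene S100a8 held 9 of Isg15, 6 of Oasl2 and 18 of Cxcl10.

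**Figure D5:**
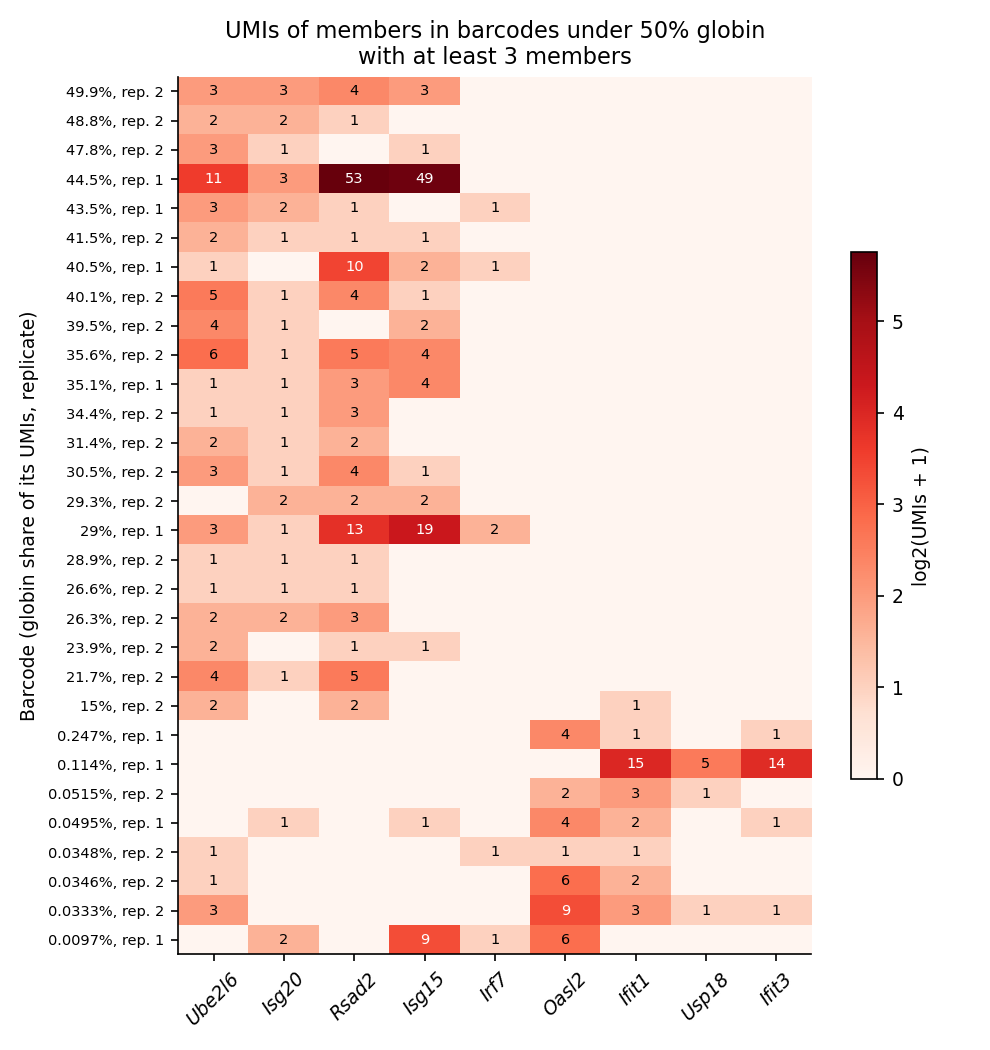
UMIs of each member (columns, colour as log2 of UMIs plus 1) in the 30 barcodes with under 50% globin and at least 3 members (rows, sorted by globin share). The 22 barcodes with 14.96% globin or more hold Ube2l6, Isg20, Rsad2, Isg15 and Irf7 and 1 UMI of Ifit1, and the 8 with at most 0.247% each hold 1 or more of Oasl2, Ifit1, Usp18 and Ifit3 and 0 UMIs of Rsad2. The 8 are also deeper, with 2832 or more non-globin UMIs, against 2745 or less in the 22.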

How the data were processed

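The authors deposited raw UMI counts per gene and barcode for each of 2 libraries, as unscaled whole numbers. The submitters' processing notes name the mm10 build, Seurat 5 and Cell Ranger 7.1.0 without their roles. Barcode calling and any removal of doublets are not given in the sources used here. No doublet caller was run here. The libraries held 3967318 and 3329292 UMIs and shared 0 barcode sequences. All 1857 deposited barcodes were kept.

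Globin share was the UMIs of the haemoglobin genes over all UMIs. Levels were summed per class and library and divided by non-globin UMIs, since globin takes up most UMIs of red barcodes and scaling to all UMIs would lower every other gene there. Mitochondrial UMIs stayed in this denominator. Intervals are exact Poisson (levels) and exact Clopper-Pearson (shares) at 95%. A count of 0 allows 3 counts. Both cover counting error only. Ratios of 2-fold in both libraries were counted for genes with at least 10 UMIs, with 1 UMI added. Thinning to 100 non-globin UMIs used the expected share. Joint detection was compared within 4 depth strata per library. The division of barcodes at 5% globin and the joint detection of Isg15 with all genes were added after seeing the data.

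The members and the gene lists were chosen with earlier results of these data known. All members are named. Beyond them, the named genes are the 5 most correlated with a member and, per interferon list, at most 4 with most UMIs in red barcodes and 3 with most in the others, with exceptions: the genes most like Isg20 and Ube2l6, single lineage markers, Cmpk2 and the further genes found with Isg15 were chosen after their values were seen. Some genes that this rule names are not reported here. Symbols of the lists without a match, such as Mx1 and Mx2, were not analysed here. Gene positions came from GENCODE M21 and promoters from RefSeq. No p-value was computed, because the members were chosen on the contrast and there is 1 group. Calculations used Python 3.11.15, numpy 2.4.6, scipy 1.17.1 and pandas 2.3.3, and the counting steps were tested on simulated data.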

Additional observations from a re-analysis of the deposited data

How the results depend on the processing

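No paired analysis was possible because both libraries belong to 1 group and no replicate number is shared between groups, while every ratio of red over other barcodes was formed within a library. With red barcodes set at 90% globin or more, which puts red cells among the others by construction, 3 members were higher and 0 lower, and 25.1% of all genes were lower. With all UMIs as denominator, 2 members and 0.876% of genes were higher. At a 4-fold threshold 0 members were lower, and 4.48% of genes were higher and 40.5% lower. Without mitochondrial UMIs 4.35% of genes were higher. With no minimum of UMIs 3.76% were higher and 36.2% lower. Leaving out each library gave 9.06% to 14.9% higher. The joint detection of Rsad2 and Isg15 over the product was 1.49 at 2 or more UMIs and 1.34 without depth strata, and 1.16 to 1.27 leaving out each library. The share of red barcodes with at least 3 members was 59.7% at 40% globin, 60.9% at 90%, 69.9% with at least 100 genes and at most 20% mitochondrial UMIs, and 33.9% at 2 or more UMIs of each. Log2 ratios of red over other barcodes ran from 1.15 to 8.48 for Rsad2, 0.42 to 6.30 for Isg15, 2.91 to 8.39 for Isg20, 2.64 to 9.31 for Ube2l6, 0.11 to 3.87 for Irf7, -4.79 to -1.21 for Oasl2, -4.32 to -0.44 for Ifit1, -5.44 to -0.42 for Ifit3 and -4.73 to 0.29 for Usp18, the single member whose sign changed. Against barcodes with under 5% globin, a group added after seeing the data, the counts of members were again 5 higher and 3 lower. The share of all genes for this comparison is not reported here. Nothing is read from a count of members that stands here without the share of all genes in the same direction. Beyond the counts, 50 of 95 values for single genes moved by more than the spread between the libraries. With a median of 735 and 710 non-globin UMIs, absence of a sparse gene from a red barcode cannot be told apart from a missed molecule.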
